A study of Danio rerio with 23 samples.

Results

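In zebrafish ovaries, 100 transcripts with higher and 100 with lower group medians at 6 months than at 3 months of age were picked. Their direction was shared by fish without the glucocorticoid receptor and wild-type fish. These 200 were picked by rank from 57775 transcripts. Levels were taken as log2(CPM + 0.5), where CPM scales counts to the library's sum, and the 21333 transcripts with a mean of 1 CPM or more over all 23 libraries were eligible. For each one, the median of the 3-month libraries was subtracted from the median of the 6-month libraries, in each genotype. The rising list holds the 100 transcripts with the largest value of the smaller of their 2 differences, and the falling list the 100 with the lowest value of the larger one. The list size of 100 comes from the rule. Both differences were above 0 for 8055 and below 0 for 4117 eligible transcripts. The age differences chose the members, so they are given below as a description and nothing is supported with them.

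RNA captured by its poly(A) tail was sequenced from ovaries of female zebrafish (Danio rerio) of 2 genotypes. The GRKO fish lacked nr3c1 (nr3c1 -/-) in the whole body, in every cell type of the ovary and outside it, and the wild type (WT) carried the gene. The groups were 6 GRKO libraries at 6 months, 6 GRKO libraries at 3 months, 6 WT libraries at 6 months and 5 WT libraries at 3 months after fertilisation, with no further treatment in the labels. The series addresses whether ovaries age sooner without the receptor. Nothing in the labels states that the libraries are separate fish, so p-values reflect only the spread between libraries, which may be technical.

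The gene nr3c1 encodes the glucocorticoid receptor, a nuclear receptor that binds cortisol and then acts on the transcription of its target genes. The zebrafish ovary spawns repeatedly through adult life and holds oocytes of all stages side by side, together with granulosa and theca cells, stroma, vessels and immune cells. In whole ovaries, fewer cells of a type and less RNA per cell cannot be told apart. A transcript is 1 splice form of a gene, and reads that match several transcripts were shared out between them in the deposited values. None of the identifiers could be paired with a gene (0 matched the tables used here), so transcripts are named by Ensembl identifier only. The transcripts of nr3c1, the tissue's marker genes and gene groups were not analysed here.

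The libraries summed to 29489146 to 39785753 estimated counts. GRKO library 4 at 3 months carries the mutant in its title and library name but the wild type in its genotype field. Here it counts as GRKO, following the title. Within the WT group at 3 months, libraries 2 and 6 stood apart from libraries 10, 12 and 13. A chi-square comparison of counts gave 262.673 to 333.311 per degree of freedom between these sets, and 46.609 to 74.407 inside them. Within the GRKO group at 6 months, library 12 stood furthest out, at 165.344 to 211.31 against libraries 2, 3, 5 and 11. Library 10 of that group was at 132.194 to 152.077 against the same 4 libraries and at 80.913 against library 12, while the 4 were at 29.061 to 45.744 among themselves.

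The typical member of each list shifted by more than 1 unit on the log2 scale in both genotypes. The rising members had a median difference, 6 minus 3 months, of 1.15 in GRKO and 1.23 in WT on that scale. The falling members had medians of -1.31 in GRKO and -1.28 in WT. Over all eligible transcripts the medians were 0.032 in GRKO and 0.087 in WT. The shift was larger in GRKO for 40 rising and 49 falling members and larger in WT for the others.

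The lists have no natural edge. At the inner edge of the rising list the ranking values were 0.857 and 0.856 at ranks 99 and 100, and the next 2 transcripts had 0.854 and 0.848. In the falling list they were -0.816 and -0.809, against -0.800 and -0.798 just outside. The top 2 had 2.34 and 2.32 in the rising list, and -4.12 and -2.75 in the falling list. In the plot of age differences the first falling member lies far from all others, while the inner members border on the cloud of eligible transcripts without a gap.

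**Figure D1:**
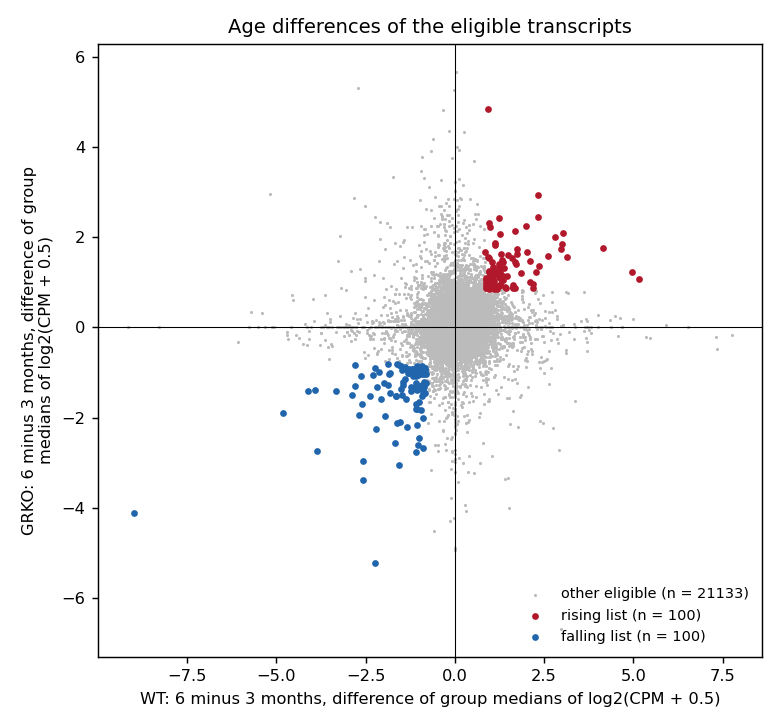
Age difference of each eligible transcript (6 minus 3 months, difference of group medians of log2(CPM + 0.5)) in GRKO on the vertical axis and in WT on the horizontal axis. The 100 rising members (red) and 100 falling members (blue) fill the corners of the quadrants where both genotypes share a sign, and their inner edges at 0.856 and -0.809 follow from the rule.

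Both age differences were above 0 in 37.8% of the eligible transcripts and below 0 in 19.3%. With library sizes scaled by TMM factors, a correction for composition, these shares were 27.3% and 29.9%, so which direction was more common turned with the scaling. That scaling moved the median age difference of the eligible transcripts by -0.11 in WT and by -0.032 in GRKO. All 100 rising and all 100 falling members kept their sign in both genotypes under it.

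The members were mostly scarce and variable transcripts. The mean level over all libraries had a median of 3.07 CPM in the rising list and 4.24 CPM in the falling list, against 10.3 CPM over the eligible transcripts. Below 10 CPM lay 88 rising and 75 falling members, against 49.5% of the eligible transcripts. A few members made up much of the summed level. The 5 most abundant held 43.8% of the summed mean CPM of the rising list and 45.4% of that of the falling list.

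The spread between libraries of 1 group was wide for these transcripts. The SD of log2(CPM + 0.5) within groups had a median of 1.02 in the rising and 1.24 in the falling list, against 0.405 over the eligible transcripts. Between 2 and 5 CPM the median SD was 0.909 for 39 rising members and 1.296 for 31 falling members, against 0.576 for 4153 eligible transcripts of that level. Ranking by a difference of medians favours variable transcripts, so this describes what the rule picked.

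Many members had a rounded count of 0 in some libraries. A rounded count above 0 in all 23 libraries was found for 46 rising and 37 falling members, against 86.4% of the eligible transcripts. A rounded count of 0 in 5 or more libraries was found for 27 rising and 41 falling members, against 5.47%. Which group medians could be 0 follows from the rule. In the rising list the group median was a count of 0 for 11 members in GRKO at 3 months and for 9 in WT at 3 months, and for none at 6 months. In the falling list it was 0 for 10 members in GRKO at 6 months and for 17 in WT at 6 months, and for none at 3 months.

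Nearly all members had a fractional count in at least 1 library. Estimated counts were exactly whole as deposited, with no tolerance, in every library for 6 rising and 5 falling members, against 14.1% of the eligible transcripts. For the remaining members at least 1 deposited value was fractional, and a fractional value holds reads split with at least 1 other transcript. The median member of each list had 100% of its nonzero values fractional, as did the median eligible transcript. Some members had few, such as ENSDART00000015092.9 with 4.35%. Whether reads moved between splice forms of 1 gene was not tested.

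The lists made up a small part of the RNA in every library. The 100 rising members held 0.0517% to 0.143% of a library's counts in GRKO at 6 months (median 0.0791%), against 0.0218% to 0.0511% (median 0.0417%) in GRKO at 3 months. In WT they held 0.0706% to 0.180% (median 0.0979%) at 6 months, against 0.0210% to 0.0664% (median 0.0555%) at 3 months. The 6-month libraries were above every 3-month library of their genotype in these sums, in GRKO by as little as 0.0517% against 0.0511%. The members were picked on this contrast, so nothing is read from it.

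The 100 falling members went the other way, with overlap. They held 0.0444% to 0.131% (median 0.0612%) in GRKO at 6 months, against 0.0863% to 0.278% (median 0.124%) in GRKO at 3 months. In WT they held 0.0384% to 0.0891% (median 0.0588%) at 6 months, against 0.0760% to 0.283% (median 0.113%) at 3 months. GRKO library 12 at 6 months, at 0.131%, lay inside the range of the 3-month GRKO libraries, and WT library 7 at 6 months, at 0.0891%, lay above WT library 10 at 3 months, at 0.0760%.

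**Figure D2:**
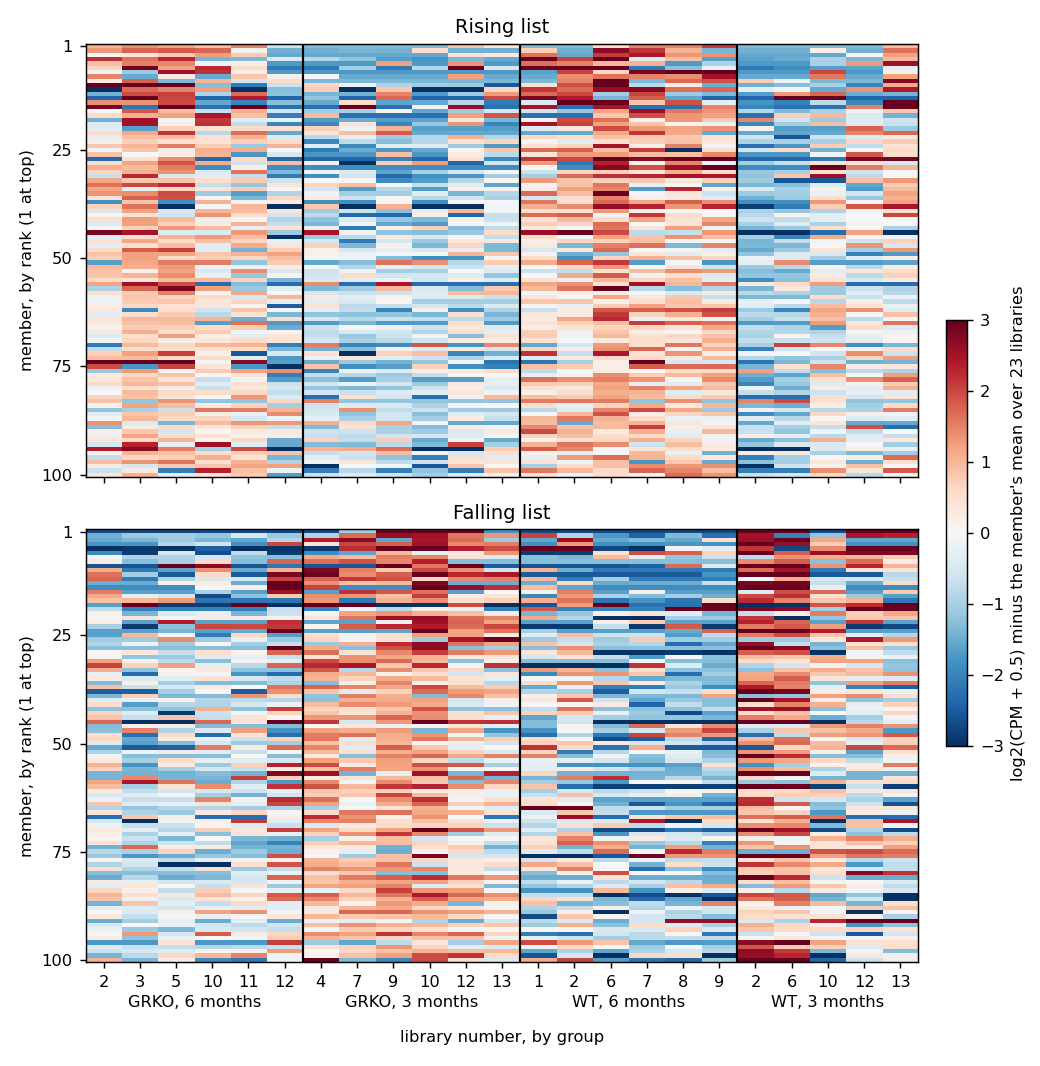
Level of each member in each of the 23 libraries, as log2(CPM + 0.5) minus the member's mean over all libraries, with members in rank order from the top and libraries in columns by group. Colours end at 3 and -3, and larger deviations take the end colour. Libraries 2 and 6 of WT at 3 months are bluest in the rising list and reddest in the falling list within their group, and library 12 of GRKO at 6 months looks unlike the 5 others of its group.

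The level of the typical member also varied between libraries of 1 group. The median of log2(CPM + 0.5) over the rising members ran from 0.84 to 2.39 in GRKO at 6 months, against 0.15 to 1.13 in GRKO at 3 months. It ran from 1.96 to 2.49 in WT at 6 months, against 0.25 to 1.78 in WT at 3 months. Only GRKO library 12 at 6 months fell among the 3-month libraries of its genotype here, and no WT library did.

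In WT at 3 months, libraries 2 and 6 set the low end of the rising list and the high end of the falling list. Their median levels of the rising members were 0.25 and 0.34, against 1.17, 1.17 and 1.78 in libraries 10, 12 and 13. Their median levels of the falling members were 3.36 and 3.12, against 1.69, 1.55 and 1.58. Member by member, both libraries lay below libraries 10, 12 and 13 for 45 rising and 12 falling members, against 32.2% of the eligible transcripts. Both lay above these for 5 rising and 51 falling members, against 36.4% of the eligible transcripts.

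Without these 2 libraries the shift in WT was smaller. The median difference in WT, 6 minus 3 months, was then 0.77 for the rising members, against 1.23 with them, and -0.85 for the falling members, against -1.28. The difference in WT kept its sign for 86 rising and 82 falling members, and stayed past the edge of the list for 45 and 56. In GRKO at 6 months, library 12 had the lowest median of the rising members, 0.84, with the others at 1.62 to 2.39. It also had the highest median of the falling members, 2.11, with the others at 0.51 to 1.43.

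**Figure D3:**
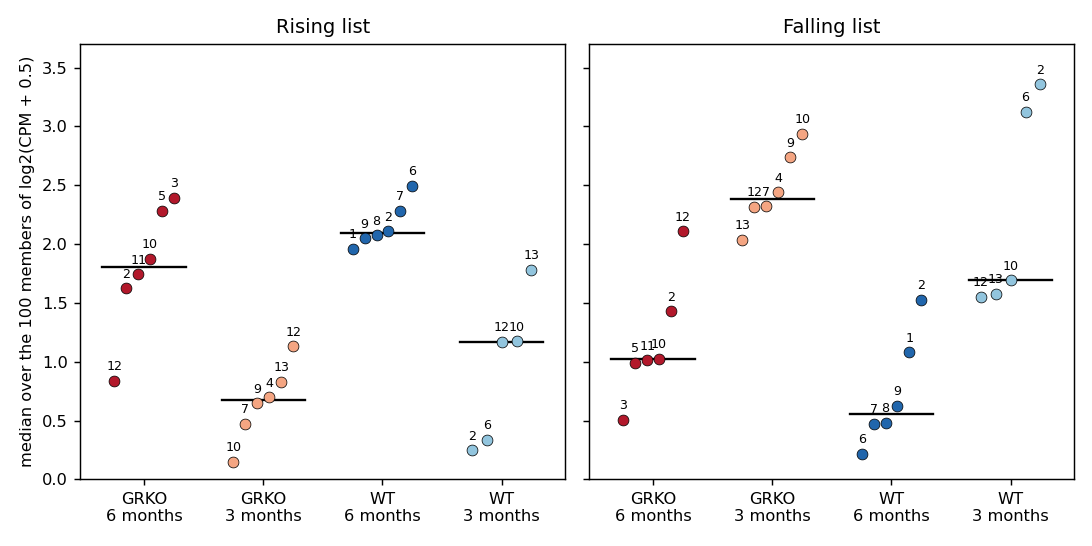
Median over the 100 members of log2(CPM + 0.5) in each library, with the library number beside each point, a bar at the group median, and the rising list on the left and the falling list on the right. Libraries 2 and 6 of WT at 3 months (0.25 and 0.34 on the left, 3.36 and 3.12 on the right) lie apart from the 3 others of their group.

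Complete separation of the ages was rare. In GRKO every 6-month library was above every 3-month library for 2 rising members (0.398% of eligible transcripts), and below for 5 falling members (0.886%). In WT it was above for 4 rising members (1.1%) and below for 3 falling members (0.192%). No member separated the ages completely in both genotypes, and 4 of the 21333 eligible transcripts did so upward and 0 downward. The rule used this contrast, so nothing is read from these counts. The range within 1 of the 2 ages was larger than the shift for 98 rising and 96 falling members in GRKO and for 96 and 97 in WT, against 99.1% and 99.4% of the eligible transcripts.

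The first rising member was low in all libraries and found mostly at 6 months. ENSDART00000132679.3 had 0.310 to 3.01 CPM (median 2.22) in the GRKO libraries at 6 months, against 1.77 and 1.17 CPM in libraries 12 and 13 and a count of 0 in the other 4 in GRKO at 3 months. In WT at 6 months it had 1.33, 3.04, 3.00 and 4.81 CPM in libraries 6, 7, 8 and 9 and a rounded count of 0 in libraries 1 and 2, against 1.91 CPM in library 13 and a rounded count of 0 in libraries 2, 6, 10 and 12 in WT at 3 months. The ages overlapped in both genotypes. The shift was 2.44 in GRKO and 2.34 in WT, on the log2(CPM + 0.5) scale, where a group median of 0 limits its size.

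The second rising member had the same make-up. ENSDART00000189420.1 had 2.81, 4.02, 4.33, 4.05 and 0.983 CPM in GRKO libraries 2, 3, 5, 10 and 11 at 6 months and a rounded count of 0 in library 12, against 1.38 CPM in library 10 and 0.0254 CPM or less in the other 5 in GRKO at 3 months. In WT at 6 months it had 1.72, 8.18, 5.50 and 2.29 CPM in libraries 1, 6, 7 and 8, 0.0248 CPM in library 9 and a rounded count of 0 in library 2, against 1.03 and 3.68 CPM in libraries 10 and 13 and a rounded count of 0 in libraries 2, 6 and 12 in WT at 3 months. Again single libraries of each age lay among those of the other.

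The first falling member had an estimated count of 0 in every older library. ENSDART00000115282.4 was at 0 in each of the 6 GRKO libraries at 6 months, against 606, 241, 48.7, 1.04 and 0.435 CPM in libraries 10, 9, 12, 7 and 13 and a count of 0 in library 4 in GRKO at 3 months. It was also at 0 in each of the 6 WT libraries at 6 months, against 404, 297, 252 and 28.1 CPM in libraries 2, 13, 12 and 6 and a count of 0 in library 10 in WT at 3 months. It is the only one of the 4 transcripts described here that was listed at 0 in every older library, and it spanned the widest range among the young ones.

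Set against 3 counts over the empty group, ENSDART00000115282.4 was at least 10011-fold lower at 6 than at 3 months in GRKO and at least 13075-fold lower in WT, from group means and with counting error only. Library 10 held most of the GRKO mean, and without it the bound in GRKO was 3900.5-fold. The bounds rest on the values that ranked this member, so they are a description. Among the younger libraries, GRKO library 4, the one with conflicting labels, and WT library 10 also had no estimated count of this transcript.

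The second falling member was low but present in every library. ENSDART00000186520.1 had 0.638 to 1.65 CPM (median 0.934) in GRKO at 6 months, against 1.15 CPM in library 4 and 7.20 to 18.5 CPM in the 5 others in GRKO at 3 months. In WT at 6 months it had 12.1 CPM in library 1 and 0.0894 to 1.14 CPM in the 5 others, against 17.2, 16.3 and 15.1 CPM in libraries 2, 12 and 13 and 0.276 and 0.861 CPM in libraries 6 and 10 in WT at 3 months. The ages overlapped in both genotypes through these few libraries. All nonzero values of the 4 transcripts were fractional, so each shares reads with another transcript.

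**Figure D4:**
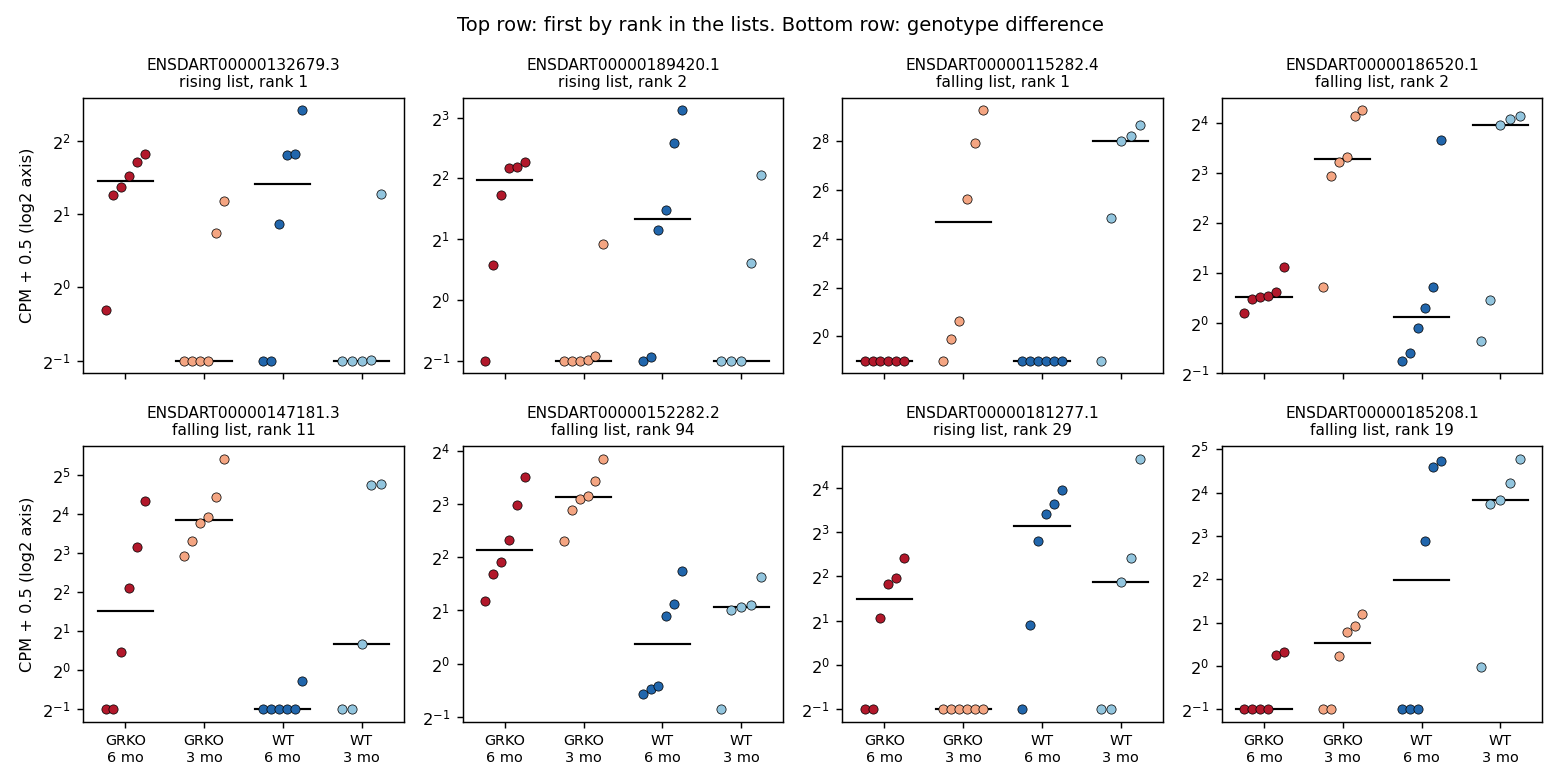
CPM + 0.5 of 8 members in every library on a log2 axis, with each point a library and each bar a group median. The top panels show the first 2 members of each list, and the bottom panels 4 members that differed between genotypes. ENSDART00000115282.4 sits at the floor of 0.5 in all 12 libraries at 6 months, and ENSDART00000181277.1 in all 6 GRKO libraries at 3 months.

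In a model across all 30849 transcripts that passed the expression filter, which kept all 200 members, few members passed the test for age. With the age effect averaged over both genotypes, 7 rising members were called higher and 9 falling members lower at 6 months (edgeR, adjusted p under 0.05). Of all tested transcripts 0.622% were called, 0.217% as higher and 0.405% as lower. Over the 21266 eligible transcripts tested, 0.861% were called. The contrast is the one the members were ranked on, so nothing is read from these counts. With each library left out in turn, 0 to 11 rising and 2 to 14 falling members were called. Of the called members, the rising ones averaged 1.46 to 9.21 CPM and the falling ones 1.18 to 81.7 CPM.

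Within 1 genotype edgeR called no member, and the other tools called some. For age in GRKO edgeR called 0 members (0.0162% of tested transcripts). Its unadjusted p was under 0.05 for 30 rising and 25 falling ones, against 3179 of the 30849 tested transcripts. DESeq2 called 11 and 13 members there (2.27% of tested transcripts), and limma 3 and 16 (2.31%). For age in WT edgeR also called 0 members (0.00972% of tested transcripts). Its unadjusted p was under 0.05 for 20 rising and 38 falling ones, against 3477 of the 30849 tested transcripts. DESeq2 called 3 and 13 there (1.34%), and limma 0 and 0 (0.0681%). For the difference between the age effects of the genotypes, edgeR called 0 members (0.00648% of tested transcripts). For that difference, 3 rising and 5 falling members had an unadjusted p under 0.05, against 1490 of the 30849 tested transcripts. DESeq2 called 1 and 2 for that difference (0.998%), and limma 0 and 0 (0.00324%). The age effects within a genotype are those the members were ranked on, and their difference is made of the same effects. The rule asked for a shift of the same sign in both genotypes. Nothing is read from any of these counts, and whether age acts alike in both genotypes was not tested.

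Which transcripts formed the lists depended strongly on the summary and on the young WT libraries. With group means in place of medians, 26 rising and 37 falling members were kept. With a minimum of 5 CPM, 29 and 45 were kept. These are all the members at that level or above. A higher minimum only removes transcripts below it, so this outcome was fixed and says nothing on how stable the lists are. Leaving out WT library 10, 12 or 13 at 3 months kept 20, 22 and 21 rising members and 37, 39 and 38 falling members. Without any other single library, at least 70 rising and 76 falling members were kept. The WT group at 3 months then had 4 libraries, 2 of them libraries 2 and 6.

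**Figure D5:**
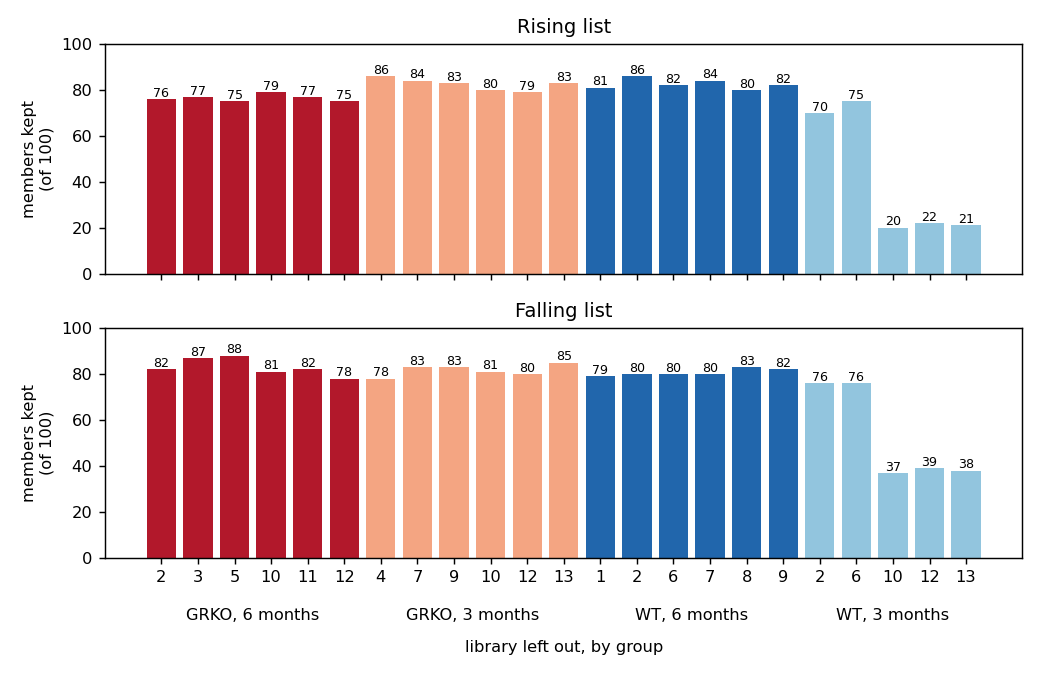
Number of the 100 members of each list that were kept when 1 library was left out and the lists were formed again, with bars by the library left out and its group. Bars stand at 70 or more (rising) and 76 or more (falling), apart from libraries 10, 12 and 13 of WT at 3 months, at 20 to 22 and 37 to 39.

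The label of GRKO library 4 also mattered. Counting it as WT kept 31 rising and 47 falling members, while leaving it out kept 86 and 78. Leaving out WT libraries 2 and 6 at 3 months together kept 49 and 61, and leaving out GRKO libraries 10 and 12 at 6 months together kept 61 and 69. Scaling by TMM factors kept 90 and 93.

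A small core of each list kept its place whichever 1 library was left out. Across the 23 lists that each left out 1 library, 9 rising members, from ranks 1 to 29, and 18 falling members, from ranks 1 to 42, were kept every time. The 9 had a median mean level of 1.74 CPM (1.28 to 5.47 CPM) and median differences of 2.01 in GRKO and 2.81 in WT. The 18 had a median mean level of 5.13 CPM (1.11 to 81.7 CPM) and median differences of -2.19 in GRKO and -2.09 in WT. All 4 transcripts described above belong to it. Being kept concerns rank only. In the edgeR test for averaged age, ENSDART00000115282.4 had an adjusted p of 0.0365, and 19 of 33 alternatives lost the call. ENSDART00000132679.3, ENSDART00000189420.1 and ENSDART00000186520.1 had 0.336, 0.293 and 0.0794. The members were ranked on that contrast, so these values are a description. Of the core, 1 rising and 3 falling members had a count in all 23 libraries.

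The genotype difference averaged over both ages was not itself used to pick the members, and it was tested. It draws on the same groups as the rule. With 6 and 5 WT libraries of unequal spread, it is not fully independent of the age differences. How far the rule enters the values below was not tested. In that comparison 9 rising and 14 falling members differed between GRKO and WT (edgeR, adjusted p under 0.05), against 20.9% of all tested and 23.4% of the eligible transcripts. Of all tested transcripts 7.7% were called higher and 13.2% lower in GRKO. Of the 9 rising members, 2 were higher and 7 lower in GRKO. Of the 14 falling members, 7 were higher and 7 lower in GRKO. Both shares of called members lie below the background, and the members were also measured with less precision. The median SE of the log2 fold change was 0.64 in the rising and 0.78 in the falling list. It was 0.27 over all tested and 0.19 over the eligible transcripts.

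The median log2 fold change, GRKO over WT, was -0.23 in the rising list and 0.31 in the falling list, against -0.062 over all tested and -0.034 over the eligible transcripts. It was above 0 for 33 rising and 61 falling members, against 44.6% of all tested transcripts. Setting the members with an empty group (3 rising, 2 falling) at their bound left both medians as they were. WT libraries 2 and 6 at 3 months, which stand at the opposite end of both lists from the 3 others of their group, enter this comparison. Without them 14 rising and 23 falling members were called, in a fit that called 11977 transcripts (36.5% of those tested) in place of 6434, and the list medians were -0.44 and 0.69. Both medians kept their sign under all 33 alternatives. Each alternative used the same members and did not form the lists again, so this cannot show what lists picked under that setting would give. The rising median was -0.15, -0.16 and -0.16 without WT library 10, 12 or 13 at 3 months, and the falling median 0.12 without GRKO library 12 at 6 months.

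Of the 23 called members, 10 (43.5%) had all GRKO libraries on the same side of the WT median of their age, and 9 did in rounded counts. The same held for 63.1% of all called transcripts and 64.3% of the called eligible ones. Another count over the 23 found that 2 were also called for age averaged over both genotypes. That contrast called 16 of the 200 members and 0.622% of all tested transcripts. The members were ranked on it, so nothing is read from this overlap.

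A falling member was higher in GRKO, with overlap of the genotypes at 6 months only. ENSDART00000152282.2 had 1.76 to 10.8 CPM (median 3.90) in GRKO at 6 months, against 0.176 to 2.85 CPM (median 0.799) in WT at 6 months. It had 4.46 to 13.9 CPM (median 8.21) in GRKO at 3 months, against 1.51, 2.59, 1.59, 0.0533 and 1.65 CPM in WT libraries 2, 6, 10, 12 and 13 at 3 months. At 3 months all 6 GRKO libraries lay above all 5 WT libraries, and at 6 months the lowest GRKO libraries overlapped the highest WT library. The way members were chosen for naming favours such a gap, and its share over all transcripts was not counted. The averaged log2 fold change of ENSDART00000152282.2 was 2.42 (SE 0.51, adjusted p = 0.00211, edgeR). The call was lost in 1 of 33 alternatives (adjusted p 3.88e-06 to 0.0501). At 3 months alone the log2 fold change was 2.54 (SE 0.75, adjusted p = 0.0381, edgeR). At 6 months alone it was 2.30 (SE 0.69, adjusted p = 0.0515, edgeR). This transcript, at rank 94, was kept in 10 of the 23 lists that left out 1 library.

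A second falling member was higher in GRKO with more scatter. ENSDART00000147181.3 had 8.42, 0.887, 3.80 and 19.7 CPM in GRKO libraries 2, 3, 10 and 12 at 6 months and a rounded count of 0 in libraries 5 and 11, against 0.326 CPM in library 9 and a rounded count of 0 in the other 5 in WT at 6 months. It had 7.12 to 42.0 CPM (median 13.9) in GRKO at 3 months, against 26.8, 26.3 and 1.096 CPM in WT libraries 2, 6 and 13 and a count of 0 in WT libraries 10 and 12 at 3 months. At 6 months GRKO libraries 5 and 11 tie with most WT libraries in rounded counts, and they lie above the WT median only by fractions of a count. At 3 months WT libraries 2 and 6 lay inside the GRKO range, and the 3 others below it. Its log2 fold change was 0.79 at 3 months (SE 1.46, adjusted p = 0.80, edgeR). At 6 months, where WT was near 0, it was 6.74 (SE 1.90, adjusted p = 0.039, edgeR). Averaged over both ages it was 3.77 (SE 1.204, adjusted p = 0.0301, edgeR), and 6.18 without WT libraries 2 and 6. The call was lost in 7 of 33 alternatives (adjusted p 0.00242 to 0.124), among them leaving out GRKO library 12 at 6 months, GRKO library 10 at 3 months or WT library 13 at 3 months, where the log2 fold change was 3.17, 3.54 and 3.64.

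A member lower in GRKO had a count of 0 in all young mutants. Such a count was found for 3 rising members in all, against 227 of the 21333 eligible transcripts. ENSDART00000181277.1, of the rising list, had 3.37, 3.02, 4.80 and 1.58 CPM in GRKO libraries 2, 3, 5 and 11 at 6 months and a count of 0 in libraries 10 and 12, against 1.38, 11.8, 6.49, 10.1 and 14.98 CPM in WT libraries 1, 6, 7, 8 and 9 and a rounded count of 0 in WT library 2 at 6 months. None of the 6 GRKO libraries at 3 months had a count of it, against 24.6, 4.79 and 3.17 CPM in WT libraries 10, 12 and 13 and a count of 0 in WT libraries 2 and 6 at 3 months. At 3 months the genotypes overlapped at a count of 0. At 6 months the GRKO libraries 2, 3, 5 and 11 also lay above WT library 1. GRKO at 3 months was at least 439-fold lower than WT, against 3 counts over the empty group, and at least 134-fold lower without WT library 10. The averaged genotype effect had an adjusted p of 0.00861 (edgeR), lost in 2 of 33 alternatives (0.000251 to 0.484), and at 6 months alone the log2 fold change was -1.81 (SE 1.52, adjusted p = 0.520).

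The last named member was scarce in all mutants. ENSDART00000185208.1, of the falling list, had 0.700 and 0.748 CPM in GRKO libraries 2 and 12 at 6 months and a count of 0 in the other 4, against 6.93, 25.96 and 23.8 CPM in WT libraries 1, 8 and 9 and a count of 0 in WT libraries 2, 6 and 7 at 6 months. It had 0 to 1.81 CPM (median 0.950) in GRKO at 3 months, against 13.7, 12.8, 0.487, 18.2 and 27.0 CPM in WT libraries 2, 6, 10, 12 and 13 at 3 months. The genotypes overlapped through WT libraries 2, 6 and 7 at 6 months and WT library 10 at 3 months. Its log2 fold change was -4.62 (SE 1.23, adjusted p = 0.0107, edgeR), lost in 2 of 33 alternatives (0.00697 to 0.980). Like the other named members, it had fractional values wherever it was above 0.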

How the data were processed

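Per the labels' protocols, a Qiagen kit gave the ovary RNA and an NEB kit with poly(dT) capture the libraries. The authors deposited estimated counts per transcript, and the submitters' processing notes name kallisto 0.48.0 and the build GRCz11. The sources used here give no annotation release, strand setting or read filter. Reads matching several transcripts are shared out, so 78.0% of the nonzero values of eligible transcripts were not whole. Of the 57775 transcripts, 3731 were at 0 in every library.

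Groups and library numbers come from the titles. Pairs of libraries within a group had a chi-square of at least 28.3 per degree of freedom, above counting noise, and none was treated as a repeat. CPM used library sums and a pseudocount of 0.5, and a count of 0 means a rounded count. The members and lists were chosen with earlier results of these data known.

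Rounded counts of 23 libraries were fitted with edgeR 4.0.16 (quasi-likelihood, robust, TMM factors, R 4.3.3), with 1 mean per group, after its default filter (count of 10, total of 15), which kept 30849 transcripts. Benjamini-Hochberg adjustment ran over all of them, with a threshold of 0.05. Bounds against an empty group set it at 3 counts over the group and take its estimated 0 as a true count. The procedure was run on simulated data in which no library stood apart from its group, so it says nothing on such libraries. Alternatives were DESeq2 1.42.0, limma 3.58.1 with voom and quality weights, upper-quartile or RLE factors, other filters, pseudocounts and list settings, a replicate block, both other treatments of GRKO library 4, and libraries left out. Figures used matplotlib 3.10.9 in Python 3.11.15.

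Named are the first 2 members of each list, and the 2 members with the largest positive and the 2 with the largest negative genotype fold change among those past the threshold with every GRKO library on 1 side of the WT median of its age in the unrounded values. Gene lists and markers planned for gene names could not be applied.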

Additional observations from a re-analysis of the deposited data

Results flagged for a closer look

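A library far from the rest was looked for in 45 groups of 5 or 6 libraries, and 8 groups held one. The groups covered summed shares and median levels of both lists and the 8 named transcripts, without 3 groups at 0 throughout. The limit used gives about 1 in 20 for independent groups of normally distributed values. Many of these values lie near 0 and the groups share libraries, so the count cannot be set against that rate. For the rising list, WT library 6 at 6 months held 0.180% of counts, with the 5 others at 0.0706% to 0.105%. For the falling list, GRKO library 12 at 6 months held 0.131%, with the 5 others at 0.0444% to 0.0686%.

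In WT at 3 months, library 13 held 1.91 CPM of ENSDART00000132679.3, with 0.00361 CPM or less in the 4 others. The same library held 3.68 CPM of ENSDART00000189420.1, with 1.03 CPM or less in the others, and GRKO library 10 at 3 months held 1.38 CPM of it, with 0.0254 CPM or less in the others. WT library 1 at 6 months held 12.1 CPM of ENSDART00000186520.1, with 0.0894 to 1.14 CPM in the others.

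WT library 9 at 6 months held 0.326 CPM of ENSDART00000147181.3, with a rounded count of 0 in the others. WT library 10 at 3 months held 24.6 CPM of ENSDART00000181277.1, with 0 to 4.79 CPM in the others.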

How the results depend on the processing

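No named transcript changed direction under an alternative. Rising and falling members kept numbered 26 and 37 with group means, and 31 and 47 with GRKO library 4 counted as WT. They numbered 49 and 61 without WT libraries 2 and 6 at 3 months. Without GRKO libraries 10 and 12 at 6 months, 61 rising ones were kept. A minimum of 5 CPM kept 29 and 45, which are all the members at that level or above, an outcome fixed by the setting. Leaving out 1 library kept 20 to 86 and 37 to 88. For genotype averaged over both ages, 6434 transcripts became 12372 with limma and 11977 without WT libraries 2 and 6. Called rising members numbered 20 with limma and 14 without those libraries, and called falling members 32 and 23, and 9 with GRKO library 4 as WT. Of all tested transcripts, 40.1% were called with limma, 36.5% without those libraries and 15.3% with GRKO library 4 as WT. Without 1 library there were 5349 to 8131 transcripts, 6 to 11 rising and 11 to 17 falling members.

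The age effect averaged over both genotypes was less settled: 192 transcripts became 1694 with DESeq2, 668 with limma, 46 without a filter, 360 with 1 CPM in 5 libraries, 53 without GRKO library 4 and 106 without GRKO libraries 10 and 12. Rising members called were 25 with DESeq2, 0 without a filter, 11 with 1 CPM in 5 libraries, 1 without GRKO library 4 and 2 without WT libraries 2 and 6. Falling members called were 30 with DESeq2, 15 with limma, 5 without a filter, 15 with 1 CPM in 5 libraries, 5 without GRKO library 4 and 5 without GRKO libraries 10 and 12. Of all tested transcripts, 5.49% were called with DESeq2, 2.17% with limma, 0.0865% without a filter and 1.54% with 1 CPM in 5 libraries. The share was 0.173% without GRKO library 4, 0.335% without GRKO libraries 10 and 12 and 0.588% without WT libraries 2 and 6. Single libraries left out gave 26 to 489 transcripts, 0 to 11 rising and 2 to 14 falling members. The count was 318, 48, 51, 88, 114 and 489 without GRKO libraries 2, 3, 5, 10, 11 and 12 at 6 months, 53, 56, 26, 61 and 325 without GRKO libraries 4, 7, 9, 10 and 12 at 3 months, 91, 94 and 84 without WT libraries 6, 7 and 9 at 6 months, and 87, 27 and 388 without WT libraries 2, 6 and 13 at 3 months.

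For age in WT, 3 transcripts became 412 with DESeq2, 21 with limma, 1 with GRKO library 4 as WT and 58 without WT libraries 2 and 6, where 1 falling member was called; DESeq2 called 3 rising and 13 falling members. With 1 library out the count was 2 to 26, with 26 without WT library 10 at 3 months and 5 and 7 without WT libraries 1 and 8 at 6 months. For age in GRKO, 5 became 700 with DESeq2, 713 with limma, 3 with GRKO library 4 as WT, 31 without WT libraries 2 and 6 and 2 without GRKO libraries 10 and 12. Members called there were 11 rising and 13 falling with DESeq2 and 3 and 16 with limma. Each library left out in turn gave 2 to 15, the ends being GRKO libraries 10 and 13 at 3 months; it gave 3 without libraries 3, 5, 10 or 11 at 6 months or 7 or 9 at 3 months. For the interaction, 2 became 308 with DESeq2 (1 rising and 2 falling members), 1 with limma, 1 without a filter, 140 without WT libraries 2 and 6 and 0 without GRKO libraries 10 and 12. Its count with each library left out was 0 to 3, and 0 or 1 for each library other than WT library 2 at 6 months and GRKO library 4 and WT library 6 at 3 months. Leaving out 1 library called 0 members of either list for age in WT, age in GRKO and the interaction. All of these are made of the effects the rule used, so nothing is read from the counts of members.

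Deviations of 13 same-numbered pairs of libraries correlated at -0.430 to 0.426, and 3 pairs were over 0.1. Pairs with different numbers were not compared, so these values cannot tell whether the library numbers pair samples. With the replicate block, 1290 transcripts (4.18% of those tested), 1 rising and 5 falling members were called for averaged genotype. It called 0 transcripts and 0 members for averaged age, for age in WT and for the interaction. Under the block the log2 fold change of ENSDART00000185208.1 was -0.24 and that of ENSDART00000147181.3 was 7.02, and no named transcript was called. The causes of these changes were not tested. Most members are under 10 CPM and in fractional counts. How far either limits the size of shift that could be detected was not tested.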
